A study of Homo sapiens with 4 samples.

Results

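The ERBB receptors EGFR, ERBB2, ERBB3 and ERBB4, the neuregulins NRG1, NRG2 and NRG3, and the ligand EGF were followed in nuclei of human enteric ganglioids, free-floating clusters of enteric neurons and their precursors grown from pluripotent stem cells. The 8 genes were taken by symbol from the deposited count tables, which list 36601 features, and all 8 were listed. They were described in each annotated cell class, treatment and day over the 4 samples, leaving out nuclei that the annotation marks as filtered. Single-nucleus RNA sequencing had been run on ganglioids that were untreated or treated with PP121, a small molecule that inhibits several receptor tyrosine kinases, among them those for PDGF, VEGF and EGF. One question of the study was which of these receptor families matter for the choice of neuron type, and NRG1 and an ERBB inhibitor were among the agents it tried. The study reports no significant effect of either on the proportion of neurons that make nitric oxide. It reports a lower proportion with PDGF and a higher one with an inhibitor of PDGF and VEGF receptors.

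All 4 samples came from H9, an established human embryonic stem cell line of normal genotype, carried through enteric neural crest and grown in suspension as stage 1 ganglioids. The 2 control samples received no inhibitor and the 2 PP121 samples received 2 µM PP121 from day 15 to day 20, weeks before the nuclei were taken. The deposited annotation dates replicate 1 of both groups to day 42 and replicate 2 to day 38. Each sample was a pool of ganglioids, and the labels number the samples by differentiation replicate, with the same number on the same day in both groups. The day therefore cannot be told apart from the differentiation replicate, and p-values measure the spread between these samples.

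ERBB receptors are receptor tyrosine kinases that signal as pairs. EGF binds EGFR, whereas neuregulins bind ERBB3 and ERBB4; ERBB2 has no known ligand and serves as the preferred partner of the others, and the kinase of ERBB3 is nearly inactive. In neural crest derivatives ERBB3 and ERBB2 are best known as the receptor pair through which NRG1 acts on glia and their precursors, and ERBB4 is best known in neurons. A nuclear RNA level says nothing about how much receptor or ligand protein is on the cell.

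The annotation gives a class to 14812 of 25306 deposited nuclei, with 2912 to 4587 per sample and a median of 6289 to 7071 unique molecular identifiers (UMIs, counted RNA molecules) per nucleus. At most 8 cell barcodes were shared between any 2 samples. Neuronal markers were highest in enteric neurons, where 7 of them summed to 1683 to 2223 CPM (a gene's UMIs divided by all UMIs of the class in a sample and scaled to 1e6), against 576 to 849 CPM in both progenitor classes. SOX2 was higher in the progenitor classes (40.9 to 62.2 CPM) than in enteric neurons (12.3 to 17.8 CPM). It was not particular to them: the class that the annotation calls unknown held 47.1 to 51.5 CPM and epithelial nuclei 30.9 to 66.0 CPM. SOX10, a defining gene of glia and crest, was 4.93 to 12.8 CPM in the progenitor classes and 7.88 to 14.0 CPM in neurons. S100B was at most 0.883 CPM in these classes, so SOX10 and S100B do not set the progenitors apart. Nuclei called mesenchymal carried collagen and related genes at 2395 to 3059 CPM in sum. Nuclei called epithelial, 9 to 37 per sample, carried 6 epithelial markers at 61.9 to 104 CPM in sum, against 12.6 to 14.2 CPM in enteric neurons and 23.0 to 207 CPM in mesenchymal nuclei. Of these markers CDH1 was 3.35 to 45.7 CPM against 0.902 to 1.78 CPM in neurons, while EPCAM overlapped between the classes (5.08 to 15.5 and 6.17 to 8.34 CPM). Mesenchymal nuclei numbered 40 and 33 on day 42, against 408 and 422 on day 38.

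ERBB4, the neuregulin receptor best known in neurons, was well detected in neurons and progenitors. In enteric neurons its level was 719 CPM in control replicate 1, 1185 CPM in control replicate 2, 1418 CPM in PP121 replicate 1 and 2381 CPM in PP121 replicate 2. Both PP121 samples were above both control samples, as for 20.1% of genes with a mean of at least 1 CPM in neurons. Within each treatment the day 38 sample was above the day 42 sample. In progenitor 2 the samples, in the same order, gave 1425, 1667, 1817 and 1921 CPM. In progenitor 1 they gave 305, 319, 347 and 593 CPM. Progenitor 1 was thus below progenitor 2 in 4 of 4 samples, with no overlap between the classes over all samples, whereas enteric neurons and progenitor 2 overlapped and were ordered differently in different samples. The unnamed class that the annotation calls unknown held 1636 to 1869 CPM, within the range of progenitor 2, and mesenchymal nuclei held 44.8 to 442 CPM. These class differences were not tested, since the classes were made by clustering the same counts.

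**Figure D1:**
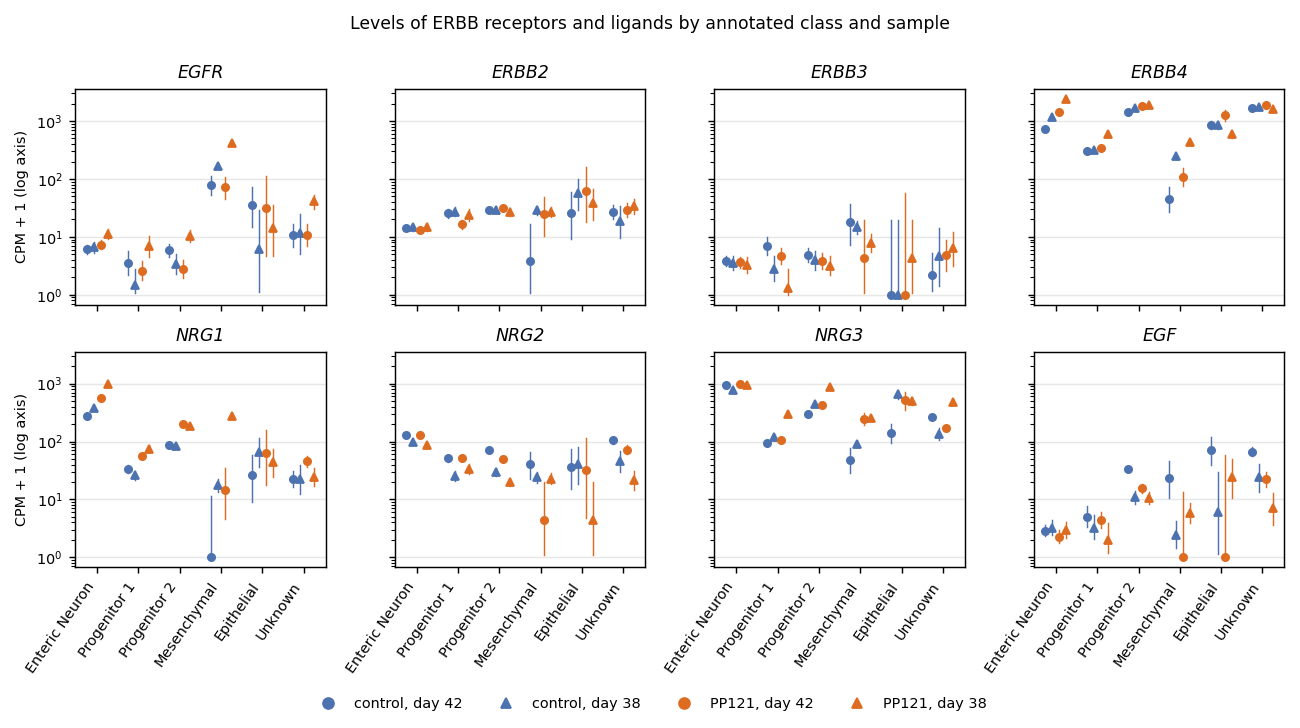
Level of each gene (CPM + 1, log axis) in the 6 annotated classes, 1 point per sample (blue control, orange PP121, circle day 42, triangle day 38) with its exact 95% Poisson interval, which covers counting error only. ERBB4 lies between 305 and 2381 CPM in neurons and progenitors, ERBB3 between 0.328 and 6.06 CPM, and EGFR is highest in mesenchymal nuclei (70.7 to 415 CPM).

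ERBB2, the partner without a ligand of its own, was low, and even between samples in neurons and in progenitor 2. Enteric neurons had 13.0, 13.5, 12.1 and 13.8 CPM, the control samples first. Progenitor 1 had 24.5, 26.3, 15.7 and 23.0 CPM, with both PP121 samples below both controls, as for 11.5% of genes there. Progenitor 2 had 28.3, 28.7, 30.5 and 26.1 CPM. Every progenitor sample was therefore above every neuron sample, and progenitor 2 was above progenitor 1 in 4 of 4 samples although their ranges overlapped.

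ERBB3, the receptor most closely tied to glial precursors, was close to the limit of detection in neurons and progenitors. In enteric neurons it reached 2.85, 2.53, 2.61 and 2.28 CPM, from 20 to 54 UMIs per sample. Progenitor 1 had 6.06, 1.76, 3.70 and 0.328 CPM, the last value resting on 1 UMI, and progenitor 2 had 3.80, 2.96, 2.90 and 2.16 CPM. Neither progenitor class stood above neurons: progenitor 1 was higher in 2 of 4 samples and progenitor 2 in 3 of 4, with overlapping ranges. Mesenchymal nuclei had 16.8, 13.5, 3.36 and 6.91 CPM, the control samples first, from 6, 49, 1 and 24 UMIs. Every mesenchymal sample was above every neuron sample, while the ranges of mesenchymal nuclei and both progenitor classes overlapped.

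EGFR was likewise low in the neural classes and high in mesenchymal nuclei. Enteric neurons had 5.12, 5.68, 6.36 and 10.3 CPM, progenitor 1 had 2.53, 0.502, 1.57 and 5.91 CPM, and progenitor 2 had 4.92, 2.41, 1.77 and 9.27 CPM. Mesenchymal nuclei had 78.5, 164, 70.7 and 415 CPM, from 28, 595, 21 and 1442 UMIs, so that every mesenchymal sample exceeded every neural sample. In neurons both PP121 samples were above both controls, as for 20.1% of genes. In all 3 neural classes the highest of the 4 samples was PP121 replicate 2, the sample in which mesenchymal nuclei also held the most EGFR. The 7 mesenchymal markers summed to 50.8, 76.5 and 67.9 CPM in neurons, progenitor 1 and progenitor 2 of that sample and to 41.8, 59.4 and 71.2 CPM in control replicate 2, against 8.26 to 27.5 CPM in the day 42 samples. The part of stray mesenchymal RNA in the neural EGFR values was not tested.

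Among the ligands, NRG1 separated the classes most. This neuregulin acts on ERBB3 and ERBB4. In enteric neurons it reached 273 and 382 CPM in the control samples and 562 and 992 CPM in the PP121 samples, in order of replicate number. Progenitor 2 held 87.7 and 82.2 CPM in control and 197 and 183 CPM in PP121 samples. Progenitor 1 held 32.8 and 25.1 CPM in control and 54.1 and 74.5 CPM in PP121 samples. The order neurons, progenitor 2, progenitor 1 had no overlap between neighbours over the 4 samples, with neurons 3.84 times progenitor 2 and 11.2 times progenitor 1 by the geometric mean over samples (1 CPM added to each level). In each of these classes both PP121 samples were also above both control samples. So were 20.1%, 17.1% and 18.2% of genes with a mean of at least 1 CPM in neurons, progenitor 1 and progenitor 2.

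NRG3, a neuregulin that binds ERBB4, was highest in neurons in each sample. Enteric neurons had 960.1, 779, 968 and 943 CPM, the control samples first, the flattest profile of the 3 neuregulins there. Progenitor 2 had 300.5, 445, 434 and 862 CPM, and progenitor 1 had 92.0, 119, 107 and 302 CPM. In both progenitor classes PP121 replicate 2 stood far above the other samples, and control replicate 2 was above PP121 replicate 1, so the treatments overlapped.

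NRG2 followed the day more than the treatment in neurons and progenitors, as did EGF in the progenitor classes. NRG2, the third neuregulin, stood at 127 and 128 CPM in the day 42 samples of enteric neurons and at 97.0 and 87.0 CPM in the day 38 samples, control first. In progenitor 2 it was 71.4 and 48.4 CPM on day 42 and 28.7 and 19.0 CPM on day 38, and in progenitor 1 50.03 and 51.6 CPM on day 42 and 24.6 and 32.8 CPM on day 38. EGF was rare in neurons, at 1.25 to 2.25 CPM, and in progenitor 1, at 0.985 to 4.04 CPM. Progenitor 2 held more, with 32.4 CPM in control replicate 1, 14.5 CPM in PP121 replicate 1, and 9.81 and 9.73 CPM in control and PP121 replicate 2. The unknown class was above progenitor 2 in 3 of 4 samples, at 65.8 and 23.4 CPM in control and 21.4 and 6.15 CPM in PP121 samples. Epithelial nuclei held 0 to 69.8 CPM, from at most 14 UMIs per sample.

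Nuclear RNA is largely unspliced, and where intronic reads are counted a long intron gives more places to capture it. CPM of different genes are then not directly comparable, so levels were also set per length. In the GENCODE 29 annotation of GRCh38, the build named by the labels, ERBB4 covers chromosome 2 from 211375717 to 212538841 on the minus strand, a span of 1163 kb of which 1.12% is exonic. NRG3 covers chromosome 10 from 81875314 to 82987179 (plus strand, 1112 kb) and NRG1 spans 1129 kb on chromosome 8. ERBB2 is short, on chromosome 17 from 39687914 to 39730426 (plus strand, 42.5 kb), as is ERBB3 on chromosome 12 from 56076799 to 56103505 (plus strand, 26.7 kb). EGFR lies on chromosome 7 from 55019021 to 55211628 (plus strand, 193 kb), NRG2 on chromosome 5 from 139846779 to 140043299 (minus strand, 197 kb) and EGF on chromosome 4 from 109912884 to 110012266 (plus strand, 99.4 kb). Whether intronic reads were counted is not stated by the sources used here, so an order of genes per length holds only if they were.

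Per 100 kb of gene span the receptors lay closer together than their CPM. In progenitor 2 the mean over samples was 147 CPM per 100 kb for ERBB4, 66.8 for ERBB2, 11.1 for ERBB3 and 2.38 for EGFR. In enteric neurons the means were 123 for ERBB4, 30.8 for ERBB2, 9.62 for ERBB3 and 3.56 for EGFR. In progenitor 1 the order of the first pair turned, with 52.6 for ERBB2 and 33.6 for ERBB4, although their ranges over samples (36.8 to 62.0 and 26.3 to 51.0) overlapped. Among the ligands in neurons the means per 100 kb were 82.1 for NRG3, 55.9 for NRG2, 48.9 for NRG1 and 1.85 for EGF, with NRG1 (24.2 to 87.9) overlapping both other neuregulins. Scaled to exonic bases instead, the order would differ, since 0.456% of the NRG3 span and 33.8% of the ERBB3 span are exonic.

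The share of nuclei with at least 1 UMI was compared after each nucleus was thinned to 2000 UMIs, which left out 12 to 38 shallower nuclei per sample. ERBB4 was found in 42.2% and 55.9% of control neurons and in 59.2% and 68.2% of PP121 neurons, in order of replicate number. NRG1 was found in 22.1% and 23.7% of control neurons and in 34.2% and 36.6% of PP121 neurons. In progenitor 2 NRG1 was found in 11.1% and 10.3% of control and in 20.8% and 22.0% of PP121 nuclei, and in progenitor 1 in 4.12% and 4.31% of control and in 7.07% and 5.02% of PP121 nuclei. The higher NRG1 level of the PP121 samples thus went with more nuclei holding it in these 3 classes. In mesenchymal nuclei at the same depth NRG1 was found in 0 to 4.52% and ERBB4 in 9.09 to 35.5%. The ERBB4 shares of progenitor 1, 26.7 to 39.8%, overlapped those of mesenchymal nuclei, and 2 of its 4 NRG1 shares fell in the mesenchymal range, although within a sample the NRG1 share was higher in progenitor 1 in 4 of 4. The part of stray RNA in these shares was not tested.

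**Figure D2:**
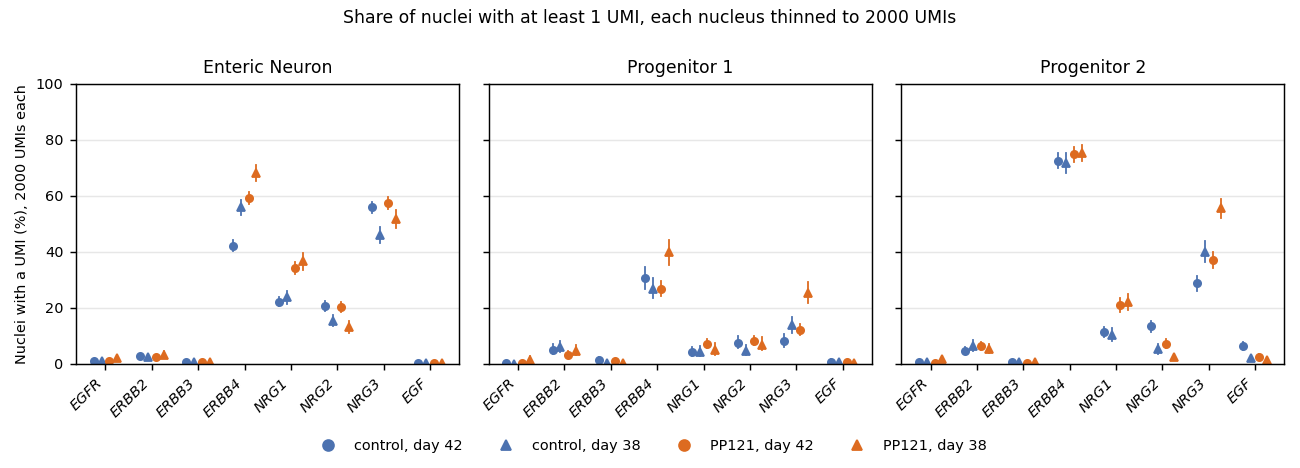
Share of nuclei with at least 1 UMI of each gene (%, y axis), each nucleus thinned to 2000 UMIs, in enteric neurons, progenitor 1 and progenitor 2, 1 point per sample with its exact Clopper-Pearson 95% interval for counting error. ERBB4 is found in 71.8 to 75.3% of progenitor 2 nuclei and NRG1 in 22.1 to 36.6% of neurons, while EGFR, ERBB3 and EGF stay under 7% in these classes.

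ERBB3 was found in 0.513 to 0.642% of enteric neurons, 0.201 to 1.20% of progenitor 1 and 0.273 to 0.739% of progenitor 2 nuclei, and EGFR in 0.960 to 1.95%, 0 to 1.41% and 0.182 to 1.65%. In mesenchymal nuclei ERBB3 was found in 0 to 7.50% and EGFR in 10.0 to 39.0%. In control replicate 2, 0 of 603 progenitor 1 nuclei held EGFR at this depth, which allows a share of up to 0.498% (3 counts), and 2 of 608 held it without thinning.

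Receptor and ligand transcripts met in the same nuclei in ways that differed between classes. Among neurons with an NRG1 UMI, 39.6 to 71.3% also held ERBB4, against 42.9 to 66.3% of neurons without one, and the share was higher with NRG1 in 1 of 4 samples. Neurons with NRG1 held NRG3 more often in 4 of 4 samples (61.4 to 71.8% against 41.1 to 51.3%), each with separate 95% intervals. In progenitor 2, nuclei with NRG3 held ERBB4 more often in 4 of 4 samples (76.8 to 84.5% against 67.7 to 69.3%), with separate intervals in 3. In neurons the same pair went the other way in 3 of 4 samples (39.2 to 68.3% with NRG3 against 45.9 to 68.0% without), with separate intervals in 1. Nuclei share a library, so these are descriptions within samples and carry no p-value.

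The comparison of PP121 with control asked whether the receptor and ligand genes differed between treatments long after the inhibitor was withdrawn. Each sample's UMIs were added up within a class and tested by edgeR's quasi-likelihood test over all genes, with Benjamini-Hochberg adjustment at 0.05. In this 2 against 2 test without a block no gene passed in any of the 3 large classes. Since samples of the same replicate number share a day, the same test was also fitted with the replicate as a block. That fit has 1 residual degree of freedom per gene and takes most of its estimate of spread from other genes, and its calls are named as such.

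In enteric neurons, NRG1 and ERBB4 were higher in both PP121 samples than in both controls and passed the test with the replicate block. NRG1 was 2.06 times as high with PP121 as in control on day 42 and 2.60 times on day 38, and ERBB4 1.97 and 2.01 times. For NRG1 the log2 fold change was 1.29 (SE 0.31, edgeR adjusted p = 0.377, unadjusted p = 0.00460) without the block and 1.25 (SE 0.09, edgeR adjusted p = 4.0e-10) with it. For ERBB4 it was 1.04 (SE 0.34, edgeR adjusted p = 0.377, unadjusted p = 0.0192) without the block and 1.03 (SE 0.08, edgeR adjusted p = 1.7e-09) with it. Of the 8 genes, 2 had an unadjusted p under 0.05 against 12% of 21243 genes tested, 0 of 8 and 0% of genes passed without the block, and 2 of 8 passed with it, where 14.8% of genes did. With the block 4 of 8 had an unadjusted p under 0.05, against 27.4% of genes. DESeq2 called NRG1 (adjusted p = 0.00581) and not ERBB4, among 102 genes called in all. Across the alternatives the edgeR and DESeq2 adjusted p ran from 4.0e-10 to 0.967 for NRG1 and from 1.7e-09 to 0.967 for ERBB4, with log2 fold changes of 0.78 to 1.66 and of 0.58 to 1.49. Without PP121 replicate 1 both passed with no block, at adjusted p = 4.7e-05 and 0.00442, but then the lone PP121 sample is assumed to vary like the controls, and 1402 of 21374 genes passed. The other 6 genes had log2 fold changes from -0.38 (EGF) to 0.65 (EGFR). The median of the 8 genes was 0.09, against -0.0022 over all genes.

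**Figure D3:**
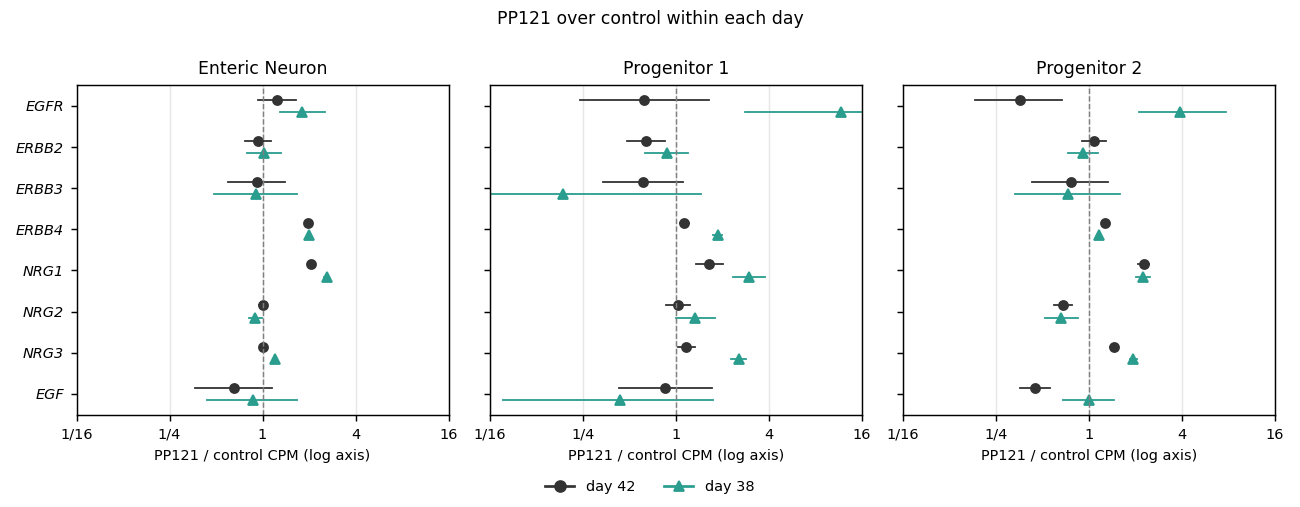
Ratio of PP121 to control CPM within each day (x axis, log scale, 1 marks no difference) for the 8 genes in enteric neurons, progenitor 1 and progenitor 2, with exact 95% intervals for counting error only. NRG1 lies to the right of 1 on both days in all 3 classes, from 1.65 to 2.97, ERBB4 is near 2 on both days in neurons, and the EGFR interval of progenitor 1 on day 38 runs past the axis to 105.

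In progenitor 2, NRG1 was 2.25 times as high with PP121 on day 42 and 2.23 times on day 38, the most even of the ratios. Its log2 fold change was 1.19 (SE 0.13, edgeR adjusted p = 0.157, unadjusted p = 2.0e-05) without the block and 1.19 (SE 0.12, edgeR adjusted p = 1.8e-11) with it, and DESeq2 called it (adjusted p = 6.9e-07). Adjusted p over its alternatives ran from 1.9e-12 to 0.647, and the log2 fold change from 1.16 to 1.35. NRG3 was 1.45 and 1.94 times as high on days 42 and 38. Its log2 fold change was 0.83 (SE 0.34, edgeR adjusted p = 0.517) without the block and 0.77 (SE 0.11, edgeR adjusted p = 4.3e-07) with it and adjusted p from 2.0e-07 to 1.00 over its alternatives.

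NRG2 and EGF were lower with PP121 in progenitor 2, and both passed with the block. NRG2 stood at 0.679 and 0.662 times its control level on days 42 and 38 and EGF at 0.447 and 0.992 times. The log2 fold change with the block was -0.54 for NRG2 (SE 0.15, edgeR adjusted p = 0.0121) and -0.69 for EGF (SE 0.22, edgeR adjusted p = 0.0386), against adjusted p = 0.778 and 0.662 without it. With classes rebuilt by clustering all samples jointly, NRG2 no longer passed with the block (edgeR adjusted p = 0.0696). Adjusted p over the alternatives ran from 4.6e-07 to 1.00 for NRG2 and from 0.00520 to 0.999 for EGF. Without control replicate 1 both log2 fold changes turned positive, to 0.23 for NRG2 and 0.30 for EGF.

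Counted over the 8 genes in progenitor 2, 2 had an unadjusted p under 0.05 against 9.39% of 18885 genes tested, 0 passed without the block, where 0% of genes did, and 4 passed with it, where 6.71% did. With the block 5 of 8 had an unadjusted p under 0.05, against 17.3% of genes. Of these 4, NRG1 and NRG3 were higher (4.38% of genes were) and NRG2 and EGF lower (2.32% were). DESeq2 called 1 of 8, where it called 98 of 18885 genes. Without PP121 replicate 1, 5 of 8 passed with no block, where 1052 of 19462 genes did, and without PP121 replicate 2, 1 of 8 did, where 231 of 20143 genes did. In both cases the spread comes from the controls, which the lone PP121 sample is assumed to share.

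In progenitor 1, NRG1 was 1.65 and 2.97 times as high with PP121 on days 42 and 38. Its log2 fold change was 1.14 (SE 0.29, edgeR adjusted p = 1.00, unadjusted p = 0.00393) without the block and 1.11 (SE 0.22, edgeR adjusted p = 5.1e-05) with it. NRG3, at 1.17 and 2.55 times, and ERBB4, at 1.14 and 1.86 times, also passed with the block, at log2 fold changes of 0.77 (SE 0.17, edgeR adjusted p = 5.6e-04) and 0.52 (SE 0.15, edgeR adjusted p = 0.0198). Over the alternatives the adjusted p reached 1.00 for all 3 genes, from lowest values of 5.1e-05, 5.6e-04 and 0.0198 for NRG1, NRG3 and ERBB4. Both ratios of the latter pair were close to 1 on day 42, so these calls rest mainly on the day 38 pair, and without PP121 replicate 2 the log2 fold change of NRG3 was -0.09. Of the 8 genes, 1 had an unadjusted p under 0.05 against 3.86% of 16083 genes tested, 0 passed without the block, where 0% of genes did, and 3 passed with it, where 3.69% did. These 3 were also those with an unadjusted p under 0.05 with the block, against 12.6% of genes. DESeq2 called 0 of 8, where it called 1 of 16083 genes. Without PP121 replicate 1, with the spread taken from the controls, 2 of 8 passed with no block, where 349 of 16917 genes did.

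The boundaries of both progenitor classes differed between control and PP121 samples. Of the deposited progenitor 1 nuclei, 87.7% and 91.3% fell in the joint cluster of that name in control samples but 67.5% and 64.3% in PP121 samples. For progenitor 2 the shift ran the other way, from 77.2% (replicate 1) and 79.9% (replicate 2) without the inhibitor to 87.4% and 91.3% with it. Of all progenitor 2 nuclei, 10.9% and 14.2% fell in joint progenitor 1 without the inhibitor, against 6.14% and 2.92% with it. Whether treatment or labelling set these shares apart was not tested. With the joint clusters and the block, NRG1 of progenitor 1 kept a log2 fold change of 0.83 (edgeR adjusted p = 0.0349). In the same class ERBB4 (0.14, adjusted p = 0.913) and NRG3 (0.58, adjusted p = 0.0808) did not pass. There ERBB4 held 363 and 343 CPM in control and 303 and 476 CPM in PP121 samples, so that the treatments overlapped.

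Whether the difference between treatments varied between classes was tested by the interaction of class and treatment. No member passed in enteric neurons against progenitor 1 or against progenitor 2, with or without the block or under any other alternative run. The nearest was ERBB4, whose log2 fold change with PP121 was higher in neurons than in progenitor 2 by 0.77 with the block (SE 0.11, unadjusted p = 4.4e-05, edgeR adjusted p = 0.123) and by 0.78 without it (SE 0.44, adjusted p = 1.00). For NRG1 the differences were 0.09 (SE 0.14) against progenitor 2 and 0.16 (SE 0.24) against progenitor 1 with the block, with edgeR adjusted p = 0.893 and 0.870. At an unadjusted p under 0.05, 0 of 8 members were counted in either contrast without the block, where 3.5% and 4.06% of genes were, and 1 of 8 and 3 of 8 with it, where 9.69% and 8.85% of genes were, against progenitor 1 and progenitor 2.

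Day 42 and day 38 were compared in the same way, with treatment as a term in place of the block. Without that term no member and no gene passed in any of the 3 classes, and 1, 4 and 3 of 8 members had an unadjusted p under 0.05 in neurons, progenitor 1 and progenitor 2, against 7.41%, 19.3% and 6.45% of genes. With it, 3, 4 and 3 of 8 passed, where 9.49%, 14.6% and 4.81% of genes did, and 4 of 8 in each class had an unadjusted p under 0.05, against 22.8%, 27.1% and 14.9%. Genes higher on day 42 were 1, 2 and 2 of the 8, where 3.68%, 5.66% and 2.26% of all genes were. DESeq2 called 0, 1 and 1 of 8, where it called 59, 461 and 64 genes in all.

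NRG2 was higher on day 42 in each class with the treatment term. Its log2 fold change, day 42 over day 38, was 0.42 in neurons (SE 0.10, edgeR adjusted p = 0.00538), 0.68 in progenitor 1 (SE 0.22, adjusted p = 0.0206) and 1.28 in progenitor 2 (SE 0.15, adjusted p = 2.1e-09). The alternatives kept these directions. EGF was also higher on day 42 in progenitor 2, by 1.12 (SE 0.22, edgeR adjusted p = 2.8e-04), and ERBB3 in progenitor 1, by 2.06 (SE 0.64, edgeR adjusted p = 0.0135), the latter on 24 and 26 UMIs against 7 and 1.

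NRG3, ERBB4 and NRG1 were lower on day 42 where they passed with the treatment term. NRG3 fell by 1.11 on the log2 scale in progenitor 1 (SE 0.17, edgeR adjusted p = 1.5e-08) and by 0.83 in progenitor 2 (SE 0.11, adjusted p = 7.2e-08), but stood at 960.1 and 968 CPM on day 42 against 779 and 943 CPM on day 38 in neurons. ERBB4 fell by 0.79 in neurons (SE 0.08, edgeR adjusted p = 1.1e-07) and by 0.58 in progenitor 1 (SE 0.15, adjusted p = 0.00215). NRG1 fell by 0.71 in neurons (SE 0.09, edgeR adjusted p = 3.6e-06), and without PP121 replicate 2 its log2 fold change turned to 0.09. With joint clusters and the treatment term NRG2 (edgeR adjusted p = 0.0256) and NRG3 (6.3e-10) still passed in progenitor 1, whereas ERBB4 (0.0515) and ERBB3 (0.0625) did not. Without control replicate 2, ERBB4 and NRG3 passed in progenitor 1 with no term, at adjusted p = 0.00663 and 0.00176, in a fit that has 1 day 38 sample, takes its spread from the day 42 samples and called 999 of 17275 genes.

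The annotation also gives neurons a transmitter identity, called from imputed expression, and a neuron may hold several. The share of neurons with an identity moved with day and treatment. It was taken over neurons given a call, 2285 and 1234 in control samples and 1887 and 915 with PP121, fewer than all neurons. Nitrergic neurons were 19.6% and 18.6% of these in control samples and 19.0% and 9.95% with PP121. Catecholaminergic neurons were 18.2% and 37.6% in control samples and 35.0% and 43.8% with PP121. The study reports a higher nitrergic proportion with PP121 from NOS1 reporter signal and flow cytometry, a different measure from these calls. NRG1 was higher in nitrergic neurons than in the other neurons of the same sample in 4 of 4 samples, by 1.17 to 3.32 times, and NRG3 by 1.96 to 3.35 times. ERBB4 was lower in nitrergic neurons in 4 of 4 samples, at 0.275 to 0.505 times the level of the others. Nitrergic neurons, which make nitric oxide through NOS1, thus held more of both ligands and less of the receptor, as a description with no test. NRG2 was also higher in them in 4 of 4 samples, by 1.29 to 2.77 times. The NRG3 and ERBB4 differences were not particular to them. NRG3 was higher with the cholinergic, GABAergic or serotonergic identity in 4 of 4 samples. ERBB4 was lower in serotonergic neurons in 4 of 4, at 0.579 to 0.739 times the others.

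In numbers, nitrergic neurons held NRG1 at 555 and 901 CPM in control and 1017 and 1066 CPM in PP121 samples, NRG3 at 1584 and 1412 CPM in control and 2050 and 2522 CPM in PP121 samples, and ERBB4 at 400.2 and 519 CPM in control and 555 and 724 CPM in PP121 samples. All 3 genes were higher in both PP121 samples than in both controls among these neurons, where the share over all genes was not computed. Glutamatergic neurons had the opposite NRG3 profile, at 0.430 to 0.563 times the other neurons in 4 of 4 samples. NRG3 was also lower in catecholaminergic neurons in 4 of 4 samples, at 0.680 to 0.924 times the others.

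**Figure D4:**
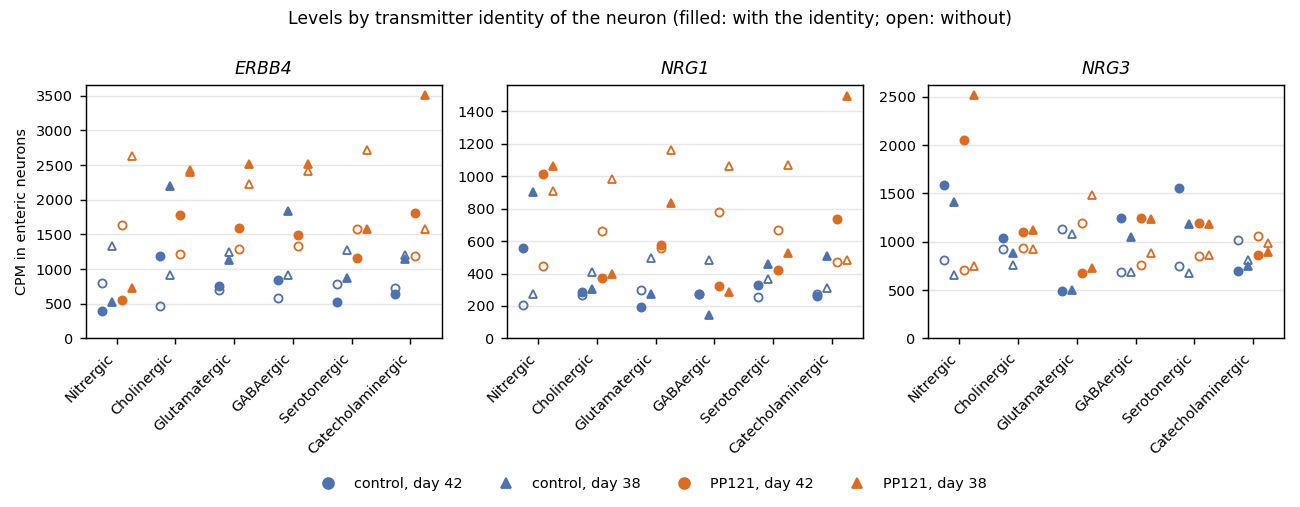
CPM of ERBB4, NRG1 and NRG3 in enteric neurons with (filled) and without (open) each annotated transmitter identity, 1 point per sample (blue control, orange PP121, circle day 42, triangle day 38). Nitrergic neurons lie above the other neurons for NRG1 and NRG3 and below them for ERBB4 in each sample, and the highest NRG1 value, 1498 CPM, is that of catecholaminergic neurons of PP121 replicate 2.

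The difference between treatments was seen within identities as well. Within a day, NRG1 was higher with PP121 in 12 of 12 pairs of samples over the 6 identities, by 1.15 to 3.02 times, and ERBB4 in 12 of 12, by 1.09 to 3.07 times. For NRG1 both PP121 samples were above both controls in 5 of 6 identities and for ERBB4 in 4 of 6. The same held for EGFR in 5 of 6 and NRG3 in 4 of 6. The share over all genes was not computed within identities. The ratios were highest among catecholaminergic neurons for ERBB4 (2.80 on day 42 and 3.07 on day 38) and among glutamatergic neurons for NRG1 (2.95 and 3.02). They were lower among cholinergic neurons (1.498 and 1.09 for ERBB4, 1.31 and 1.30 for NRG1), but not only there. ERBB4 had ratios of 1.39 and 1.40 among nitrergic neurons, and NRG1 of 1.27 and 1.15 among serotonergic neurons. The identities share nuclei, so the pairs are not independent, and no difference between identities was tested.

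In mesenchymal nuclei EGFR had the highest mean per length among the receptors, at 94.6 CPM per 100 kb. ERBB2 had 47.0, ERBB3 38.04 and ERBB4 18.2, although EGFR (36.7 to 216) and ERBB2 (6.59 to 65.0) overlapped. Without scaling to length the mean was 212 CPM for ERBB4 and 182 CPM for EGFR. On day 38, where the class was large, EGFR stood at 164 CPM in control and 415 CPM with PP121, a ratio of 2.53 with a counting interval of 2.29 to 2.78, and it was found in 168 of 408 and 246 of 422 nuclei without thinning. ERBB4 and NRG3 were also higher with PP121 on that day, at 1.75 and 2.85 times. With 1 sample per treatment of adequate size there is no replicate check, and on day 42 EGFR was 78.5 and 70.7 CPM.

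The NRG1 level of mesenchymal nuclei was set by very few nuclei. PP121 replicate 2 held 955 NRG1 UMIs (275 CPM) against 60 (16.6 CPM) in control replicate 2, and 94.0% of the 955 lay in 10 of 422 nuclei. A single nucleus held 587 of them, 2.09% of its 28054 UMIs, and was among the 5% of nuclei set aside as doublet candidates. Without that nucleus the class stood at 107 CPM, and without all doublet candidates at 101 CPM in PP121 and 6.24 CPM in control replicate 2. PP121 replicate 2 stayed above control replicate 2 in each of these counts, by 16.6 times over all nuclei, with 1 sample per treatment and so no replicate check.

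**Figure D5:**
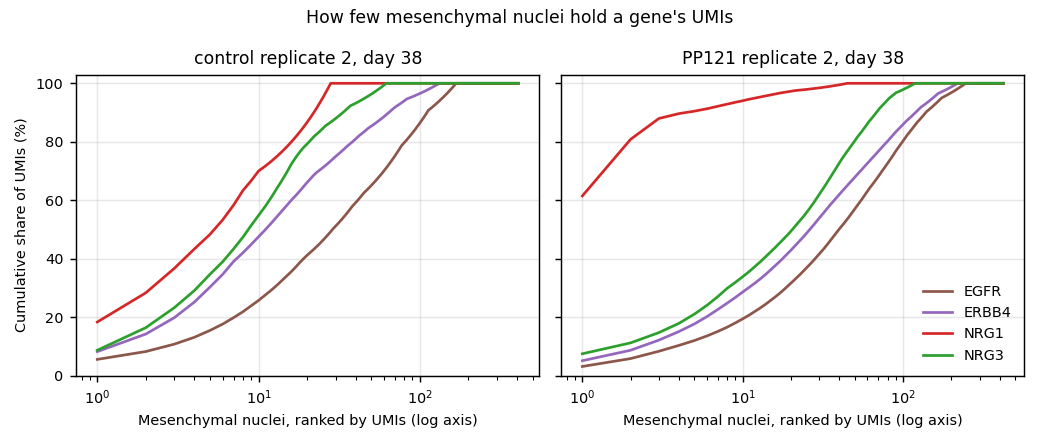
Cumulative share of a gene's UMIs (%, y axis) over mesenchymal nuclei ranked from most to fewest UMIs (x axis, log scale) in the 2 day 38 samples. In PP121 replicate 2 the first nucleus holds 61.5% of the NRG1 UMIs, whereas the first 10 nuclei hold 19.4% of the EGFR UMIs.

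Other genes of ERBB signalling were counted from a list of 34 (further ligands, the sheddases that release them, adaptors and effectors, and negative regulators). In enteric neurons 31 were tested and none passed without the block. Of the 31, 4 had an unadjusted p under 0.05, where 12% of all genes did, and DESeq2 called 0. With the block 9 were higher and 1 lower with PP121, where 7.97% and 6.86% of genes were. The adaptors and effectors SHC3, SHC2, PIK3R3, GAB1, GAB2 and SOS2 were among the 9, with log2 fold changes of 0.33 (SOS2) to 0.55 (SHC3), as were CBLB, a ubiquitin ligase that ends receptor signalling (0.41), SPRED2, an inhibitor of the RAS pathway (0.36), and PTPRK, a receptor phosphatase (0.52). ADAM17, the sheddase for many EGF family ligands, was lower by -0.34 on the log2 scale (edgeR adjusted p = 0.0107 with the block). With joint clusters and the block, 3 of 31 passed, each of them higher, where 705 of 21498 genes were higher.

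In progenitor 2, 29 of the list were tested, 0 passed without the block (3 had an unadjusted p under 0.05, against 9.39% of all genes), and 3 passed with it, where 6.71% of all genes did. With the block SHC3 was higher (log2 fold change 1.14, SE 0.14, edgeR adjusted p = 1.3e-08), while ADAM17 (-0.42, adjusted p = 0.0190) and LRIG1, a feedback inhibitor of ERBB receptors (-0.39, adjusted p = 0.0186), were lower. DESeq2 called 1 of 29, SHC3, where it called 98 genes in all. In progenitor 1, 0 of 29 passed with or without the block, and 2 with it and 0 without it had an unadjusted p under 0.05, against 12.6% and 3.86% of all genes. The median log2 fold change of the list without the block was 0.17 in neurons, -0.06 in progenitor 1 and -0.06 in progenitor 2. By day, with the treatment term, 0 of the list were higher on day 42 in any class, and 5 of 31, 10 of 29 and 2 of 29 were lower in neurons, progenitor 1 and progenitor 2, where 5.81%, 8.95% and 2.55% of genes were. Among those of progenitor 1 were ADAM10, the other main sheddase (-0.65), LRIG3 (-1.43), ERBIN, a binding partner of ERBB2 (-0.67), and PIK3R1 (-0.82).

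Genes with profiles most like each member were ranked by Pearson's r of log2(CPM + 1) over 18 class sums of at least 50 nuclei, among 11571 genes with a mean of at least 10 CPM. NRG1 was closest to EVL (0.946), MEX3A (0.934) and PAK5 (0.914), and NRG3 to LINC01456 (0.948), AC005609.1 (0.931) and AC011369.1 (0.930). ERBB4 was closest to SLC44A5 (0.958), IGSF1 (0.950) and AC112196.1 (0.939), and ERBB2 to AC087286.2 (0.941), UTRN (0.927) and NOTCH3 (0.906). EGFR was closest to MDK (0.924), PLD1 (0.923) and GXYLT2 (0.918), NRG2 to AL161757.5 (0.925), SLC37A1 (0.912) and MAPT-AS1 (0.892), and EGF to ALG1L2 (0.928), VEPH1 (0.884) and SFXN5 (0.879). ERBB3 was under the minimum level. Among the members the closest pair was NRG1 and NRG3 (0.792), ahead of ERBB4 and NRG3 (0.634), and the most opposed was ERBB2 and NRG2 (-0.665). The sums share samples and depth, so these are descriptions.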

How the data were processed

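Nuclei of 4 samples, 2 control and 2 PP121, were profiled by droplet sequencing. The deposited counts are whole UMIs per gene and nucleus, made by the authors. Per the labels Cell Ranger, Seurat 4.0.4 and GRCh38 were used, whereas the study's methods name kallisto and bustools, and the sources used here do not state whether intronic reads were counted or strand was used. The percent of mitochondrial and ribosomal UMIs per nucleus, deposited by the authors from Seurat, was not used in any result. Classes, days and transmitter identities were used as the authors deposited them. A deposited column of sample names disagrees with the labels for the control samples, whose names were taken from the labels, and the annotated days differ from the single day given in the study's methods.

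The 8 genes and all lists were chosen with earlier results of these data known. Counts of annotated nuclei (23348045 to 34123759 UMIs per sample) were summed per class and sample and tested with edgeR 4.0.16 (TMM, filterByExpr, quasi-likelihood, Benjamini-Hochberg at 0.05) in R 4.3.3. DESeq2 1.42.0, other filters, a replicate block, jointly rebuilt clusters (scanpy 1.11.5), removal of doublet candidates and leaving out each sample were alternatives. The self-test ran the same code on simulated counts. Doublets were treated by leaving out the top 5% of nuclei per sample by Scrublet score, since its default threshold marked at most 1 nucleus per sample. Same-numbered samples share the annotated day, and their deviations from group means correlated at 0.421, 0.435 and 0.275 in enteric neurons, progenitor 1 and progenitor 2. Full statistics are given for genes with an unadjusted p under 0.05 without the block or an adjusted p under 0.05 with it. Intervals are exact Poisson or Clopper-Pearson at 95% and cover counting error only, as do limits from 3 counts. Shares were described with no test, and positions came from GENCODE 29.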

Additional observations from a re-analysis of the deposited data

Results flagged for a closer look

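EGFR in progenitor 2 moved in opposite directions on the 2 days. With PP121 it stood at 0.359 times the control level on day 42 (counting interval 0.182 to 0.667) and at 3.85 times on day 38 (2.09 to 7.65). NRG3 in the class called unknown stood at 0.646 times the control level on day 42 and at 3.54 times on day 38. Both were picked out because the counting intervals of the 2 days lie on opposite sides of 1, among classes with at least 50 nuclei in every sample. The difference between the days was not tested, since each rests on 1 sample per treatment and day.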

How the results depend on the processing

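The number of the 8 genes passing for PP121 against control was 0 in each class without a block. With the replicate block it was 2 in enteric neurons, 3 in progenitor 1 and 4 in progenitor 2 (3152, 593 and 1267 genes in all, against 0). The block with joint clusters gave 2, 1 and 3 (1055, 332 and 1054 genes in all). DESeq2 gave 1 in neurons and 1 in progenitor 2 (102 and 98 genes in all), and no filter on low counts gave 1 and 3 (69 and 768 genes). Leaving out each sample, which assumes that the lone sample of an arm varies like the other group, gave 0 to 2, 0 to 2 and 0 to 5. For day 42 against day 38 the number was 0 in each class without the treatment term, where no gene passed. It was 3, 4 and 3 with the term (2015, 2350 and 908 genes in all). With joint clusters as well it was 3, 2 and 3 (1457, 1907 and 860 genes). DESeq2 gave 1 in progenitor 1 and 1 in progenitor 2 (461 and 64 genes in all), and no filter 3 and 3 (1261 and 415 genes). Pairs of gene and class with both PP121 shares above both controls numbered 5 of 24 at 2000 UMIs and 8 at 1000. The matching number over all genes was not computed. Fold changes that turned sign did so when a sample was left out: EGF (-1.35 to 0.30) and NRG2 (-1.36 to 0.23) in progenitor 2 and, without PP121 replicate 2, NRG3 in progenitor 1 (-0.0917, range -0.09 to 1.57) for PP121 and NRG1 in neurons by day (0.0921, range -1.41 to 0.09). The cause was not tested. Of the fold changes recomputed, 146 kept their direction and side of the threshold, 58 passed where they had not, and 4 turned sign. With 2 samples per group, and EGFR, ERBB3 and EGF at a few CPM, small differences in these genes were not detectable at this depth.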

Other observations

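The nuclei that the annotation marks as filtered, left out of the results above, also held UMIs of these genes. They were shallow, with a median of 666 to 822.5 UMIs per nucleus by sample, against 6289 to 7071 in annotated nuclei. The part of stray RNA in their counts was not tested. Among the filtered nuclei NRG1 was 2.15 times as high with PP121 as in control on day 42 and 2.32 times on day 38. ERBB4 was 1.93 and 2.02 times as high. Over all deposited nuclei NRG1 stood at 172 and 192 CPM in control and 337 and 465 CPM in PP121 samples, and ERBB4 at 848 and 1007 CPM in control and 1327 and 1722 CPM in PP121 samples. The ratios over all deposited nuclei were 1.96 and 2.42 for NRG1 and 1.56 and 1.71 for ERBB4. These values mix classes whose shares differ between samples and were not tested.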
